A study of Mus musculus with 75 samples.

Results

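Trp53 and 9 genes linked to it (Mdm2, Ccng1, Cdkn1a, Gadd45a, Gadd45b, Gdf15, Bax, Trp53inp1 and Phlda3) were followed through 75 bulk RNA-seq libraries of whole mouse kidney. They are the 10 genes, of 32245 in the count table, that carry these symbols. The rule used the symbols and no measured value, but the genes were chosen with earlier results of these data known. Kidneys were taken from adult mice 3 days after unilateral ureteral obstruction (UUO), in which 1 ureter is tied off, except that some controls of the Pdgfb arm were sham-operated. The unobstructed contralateral kidney (CL) served as the control. All obstructed mice had received an analgesic.

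The libraries form 3 arms of 4 groups. In the ABTAA arm, mice received either the human IgG Fc control (IgG, 8 CL and 8 UUO libraries) or ABTAA (labelled ABT, 7 and 7), an antibody that binds ANGPT2 and activates the endothelial receptor TIE2. In the Veptp arm, Veptp iECKO mice (VeKO, 6 CL and 8 UUO) lost the TIE2 phosphatase gene Veptp (Ptprb) in endothelium through tamoxifen and Cdh5-CreERT2. Their littermate controls (VeWT, 7 and 8) carried a floxed Veptp allele and the Cre but were not induced. VeWT UUO libraries outnumber the Veptp WT animals of the methods, and the reason is not stated. In the Pdgfb arm, Pdgfb iKO mice (PbKO, 4 and 4) carried an Actb-driven CreERT2 that acts in all cells, induced with tamoxifen shortly before the experiment. Their controls (PbWT, 4 and 4) were Cre-negative littermates with floxed Pdgfb alleles. Some PbWT CL libraries come from sham-operated mice, and the labels do not mark which. The floxed lines were on a mixed background, the ABTAA arm used in-house C57BL6/J mice or WT mice from those crosses, and both sexes were used.

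p53, the protein encoded by Trp53, is a transcription factor held at a low level by the ubiquitin ligase MDM2 and released by DNA damage and other stress. It then raises genes that halt the cell cycle, repair DNA or trigger apoptosis, and it also raises Mdm2, which closes a feedback loop. In injured kidney tubules, cell cycle arrest through p21, the product of Cdkn1a, is a well known part of the response to damage, and tubule cells that stay arrested are linked with fibrosis. Several of these genes, Cdkn1a, Gdf15 and the Gadd45 genes among them, can also be raised without p53 by other stress-responsive factors.

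The promoters are shown because p53 binds a pair of half-sites of 10 bases each, separated by a short spacer. RefSeq promoter windows (GRCm38.p6), which run from 250 bases before to 50 bases after the annotated start, existed for 9 of the 10 genes, and Trp53inp1 had none. A search of both strands for the p53 half-site consensus found 7 matches in 6 of these 9 genes. Such a match was present in 8.36% of all 32851 promoter windows. A full pair with a spacer of at most 13 bases was found in Cdkn1a, and in 0.0731% of all windows, 24 in number. The matches, read on the strand of the gene, were the following, with all bases in capitals because each is a match.
Cdkn1a, distal: GGACTAGCTT
Cdkn1a, proximal: GAACATGTCT
Trp53: GGACTTGCCC
Mdm2: GAACTTGCCT
Ccng1: GGGCAAGCCT
Gadd45a: GGGCTAGCCC
Bax: AGGCAAGCTT

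The promoter of Cdkn1a is printed because it holds the pair and because this gene had the most regular response below. The sequence lies at chr17:29090729-29090975 on the plus strand, just upstream of the annotated gene (17:29090976-29100727), and the capitals mark the pair with its spacer. The promoter of Gdf15, at chr8:70632457-70632706 on the minus strand upstream of the gene (8:70629393-70632456), is printed beside it because Gdf15 also responded in every arm, while no searched motif was found in its window. For both genes the table holds a second start, whose window held no match.
Cdkn1a: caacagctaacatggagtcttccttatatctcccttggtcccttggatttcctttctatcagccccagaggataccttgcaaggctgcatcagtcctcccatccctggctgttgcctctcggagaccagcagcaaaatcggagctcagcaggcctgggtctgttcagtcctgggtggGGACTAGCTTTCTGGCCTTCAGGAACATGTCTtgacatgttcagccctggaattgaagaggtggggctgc
Gdf15: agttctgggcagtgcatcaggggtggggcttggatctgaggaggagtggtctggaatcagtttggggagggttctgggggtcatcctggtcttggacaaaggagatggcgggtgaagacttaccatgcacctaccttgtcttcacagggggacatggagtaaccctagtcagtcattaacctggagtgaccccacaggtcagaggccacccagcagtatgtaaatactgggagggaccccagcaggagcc

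**Figure D1:**
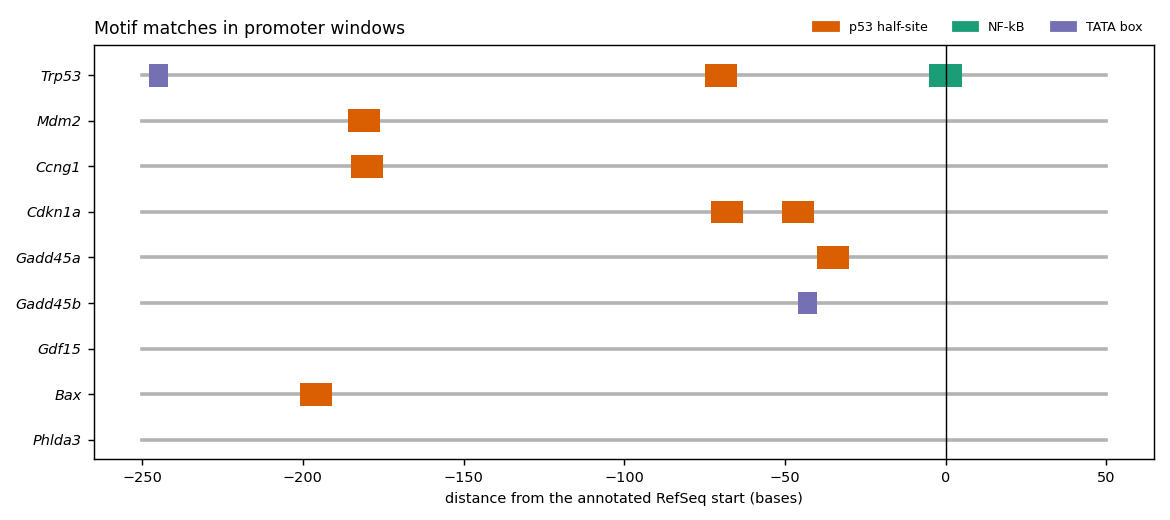
Matches to the p53 half-site, the NF-kB consensus and the TATA box in the promoter windows of 9 genes, drawn by distance in bases from the annotated RefSeq start on the strand of the gene. Cdkn1a shows 2 half-sites within 100 bases of its start, while Gdf15 and Phlda3 show no match.

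Other motifs were searched in the windows of the same 9 genes, which are too few to call a motif rare or common. The AP-1 site (TGANTCA), present in 7.81% of all windows, and the CRE site (TGACGTCA), present in 1.79%, were found in 0 of the 9 genes. Trp53 held the NF-kB consensus, as did 8.46% of all windows. Trp53 and Gadd45b held the letters TATAAA, as did 13.6% of all windows, and in Trp53 these lay far from the start and on the opposite strand. A match describes letters in a window of 300 bases and does not show that a factor binds there.

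Depth limited every value. The libraries held between 172827 and 2341800 counts (median 757897), so that 1 count was worth between 0.347 and 6.70 CPM (counts scaled to library size, with TMM factors). Library names came in 2 forms, a letter and a number joined (45 libraries) or split by a low line (30). Each ABTAA and Veptp group held libraries of either form, while the Pdgfb arm held joined names. The form moved 39.7% of the genes tested in the ABTAA arm and 62.4% in the Veptp arm (edgeR, adjusted p under 0.05, either direction), so it is given beside the results it touches. In 24 of 75 libraries both Xist and 4 Y-linked genes together reached at least 10 counts. Kidney markers were present in the libraries. Summed over 8 genes, proximal tubule markers in CL libraries had group medians between 5875 and 7019 CPM.

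Obstruction raised Cdkn1a in all 6 genotypes and treatments, and it was the 1 member called in all 6 fits over all genes. Gdf15 was called in the 4 fits in which it was tested and passed an exact permutation test in the IgG and ABTAA groups. p21 binds cyclin-dependent kinases and stops the cell cycle before DNA replication. In IgG mice, Cdkn1a stood at 0.00 (lowest), 9.28 (median) and 25.9 CPM (highest) in 8 CL kidneys and at 18.1, 49.6 and 99.0 in 8 UUO kidneys. In ABTAA mice it stood at 4.98, 12.5 and 20.7 CPM in CL and 33.2, 40.4 and 78.9 in UUO. The 2 kidneys of ABTAA mice did not overlap, whereas 5 of 8 IgG UUO libraries lay above the highest IgG CL library.

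Veptp WT mice had 2.25, 8.69 and 17.9 CPM of Cdkn1a in CL and 35.1, 49.6 and 79.1 in UUO, again without overlap. Veptp iECKO mice had 2.33, 6.29 and 29.5 CPM in CL and 20.7, 35.7 and 67.0 in UUO, and 7 of 8 UUO libraries lay above all CL libraries. The 4 Pdgfb WT CL libraries had 5.66, 9.81, 7.43 and 16.9 CPM and the 4 UUO libraries 67.2, 79.4, 63.1 and 61.3. Libraries labelled Pdgfb iKO had 18.1, 17.7, 13.7 and 8.96 CPM in CL and 33.1, 40.6, 44.6 and 40.9 in UUO. Both Pdgfb groups were fully separated by obstruction. In 35 of 39 UUO libraries over all genotypes, the level exceeded every CL library of the same genotype. Throughout, a lack of overlap between groups is a description. How many of all genes were separated in this way was not counted, so no background stands beside it.

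On the log2 scale, the rise of Cdkn1a was 2.29 ± 0.39 (SE, adjusted p = 1.61e-05) in IgG and 1.89 ± 0.37 (adjusted p = 0.00022) in ABTAA mice. It was 2.50 ± 0.38 (adjusted p = 2.41e-05) in Veptp WT and 2.33 ± 0.44 (adjusted p = 0.000832) in Veptp iECKO mice. It was 2.73 ± 0.24 (adjusted p = 3.86e-09) in Pdgfb WT and 1.54 ± 0.26 (adjusted p = 0.000611) in libraries labelled Pdgfb iKO. These p-values come from edgeR's quasi-likelihood test over all genes of an arm. Leaving out any 1 library changed none of these 6 calls for Cdkn1a. Thinned to the depth of the shallowest library, the call was lost in Veptp WT (adjusted p = 0.195), Veptp iECKO (adjusted p = 0.603) and libraries labelled Pdgfb iKO (adjusted p = 0.445). In Veptp iECKO mice libraries with joined names alone gave 0.92 (adjusted p = 0.753), those with split names gave 3.07 (adjusted p = 1.50e-05), and the difference between the forms was 2.15 ± 0.79 (adjusted p = 0.346).

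The form of library name moved the level of Cdkn1a in the ABTAA arm. With split names it was lower by 1.15 ± 0.19 on the log2 scale (adjusted p = 5.86e-06). In IgG UUO kidneys, the 4 libraries with joined names lay between 70.3 and 99.0 CPM and the 4 with split names between 18.1 and 28.9. The rise with obstruction was 2.38 in the former and 2.06 in the latter taken alone, and both passed the test.

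**Figure D2:**
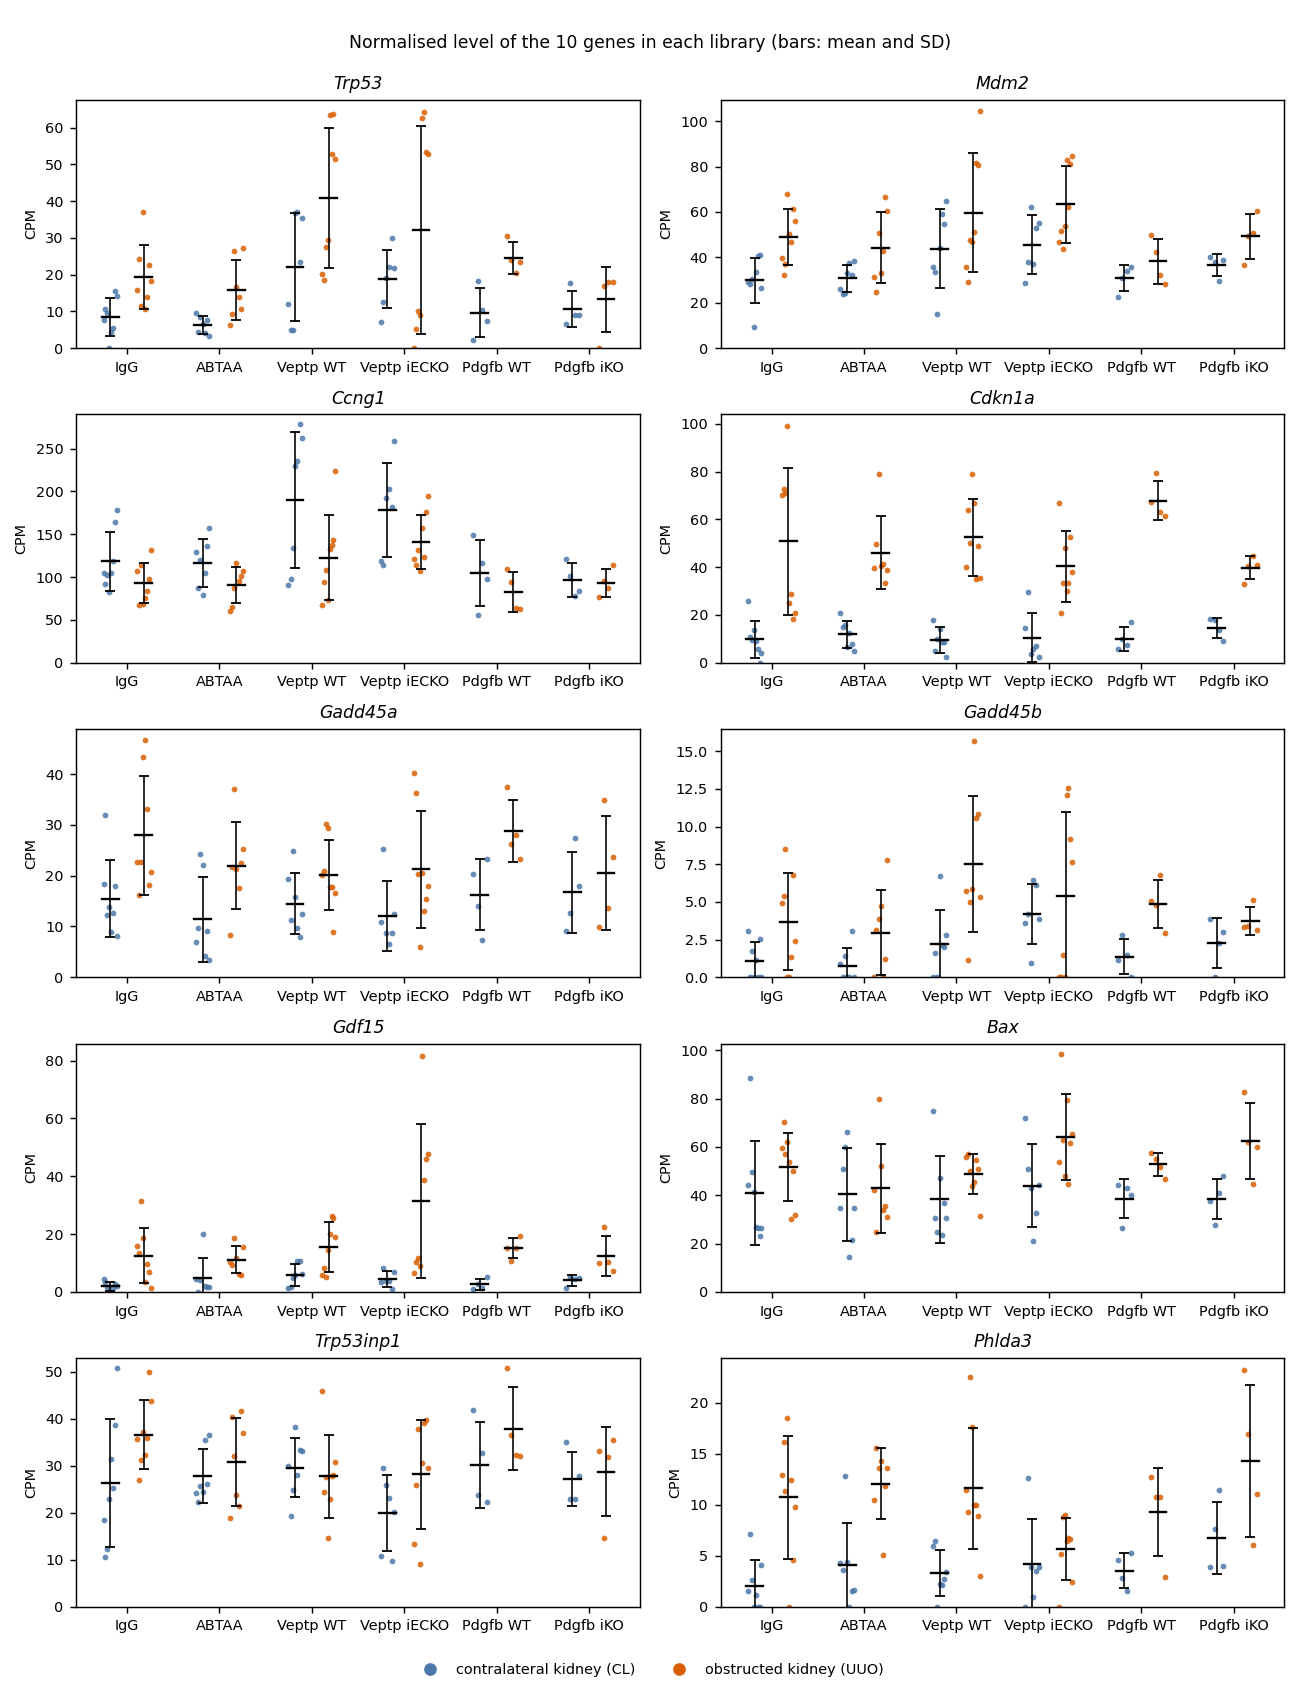
Level of each of the 10 genes in CPM (linear axis) in every library, by genotype or treatment and kidney (blue, CL; orange, UUO). Points are libraries, and bars give mean and SD. The means are higher in UUO in all 6 pairs of groups for each gene except Ccng1 and Trp53inp1. Those of Ccng1 are lower in all 6, and that of Trp53inp1 is lower in Veptp WT.

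Of the 10 genes, 3 were too low to be tested over all genes in the ABTAA arm and 1 in the Pdgfb arm. In IgG mice 4 of 7 tested members rose, against 16.3% of all genes tested. In ABTAA mice it was 4 of 7, against 12.6%. In Veptp WT mice it was 4 of 10, against 10.0%, and in Veptp iECKO mice 2 of 10, against 4.47%. In Pdgfb WT mice 5 of 9 rose, against 17.9%, and in libraries labelled Pdgfb iKO 2 of 9, against 3.94%. In these 6 comparisons no member fell by the same test. A gene low in CL could pass the expression filter through its UUO libraries, and then be counted as rising but hardly as falling. Gadd45b was such a gene in the Veptp fits, with CL maxima of 6.75 CPM (Veptp WT) and 6.47 CPM (Veptp iECKO). Gdf15 was another in the Pdgfb fits, with 5.28 CPM (Pdgfb WT) and 5.07 CPM (labelled Pdgfb iKO). The shares of all genes and the lists below rest on the same filter. The median log2 fold change of the tested members was 0.66, 0.61, 0.69, 0.77, 0.78 and 0.58 in that order, while the median of all genes lay between -0.01 and 0.04. In whole tissue, fewer cells of a type and less RNA per cell cannot be told apart.

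With the form of library name in the model, counts of members that rose were 5 of 7 in IgG (18.9% of all genes) and 4 of 7 in ABTAA (15.4%). They were 6 of 10 in Veptp WT (16.6%) and 7 of 10 in Veptp iECKO mice (10.7%), and in Veptp WT Ccng1 fell. That fit added Trp53 and Mdm2 in both Veptp genotypes.

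**Figure D3:**
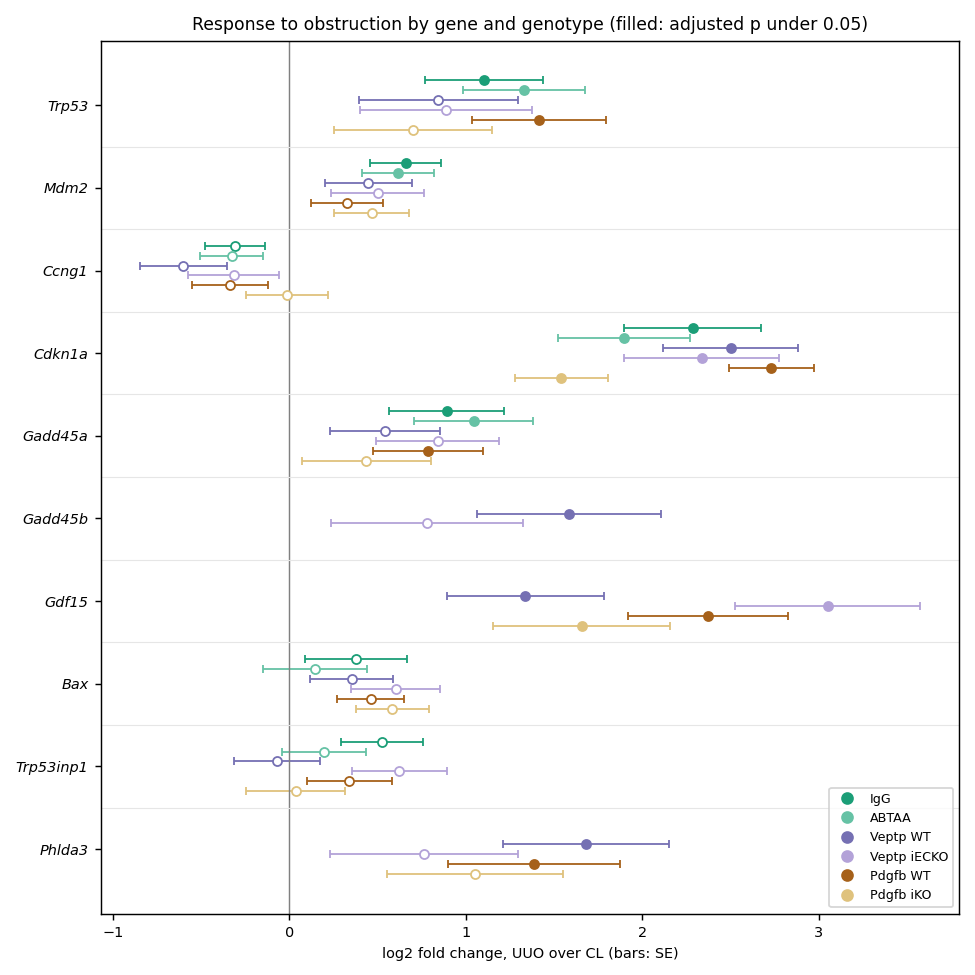
Log2 fold change of UUO over CL with its SE for each gene and each of the 6 genotypes or treatments. Filled points have an adjusted p under 0.05, and missing points were too low to be tested. Cdkn1a is filled in all 6 comparisons, Gdf15 in all 4 in which it was tested, and Ccng1 lies at or left of 0 in each.

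Trp53 itself rose in 3 of 6 comparisons. In IgG mice it went from 0.00, 8.61 and 15.4 CPM (lowest, median, highest) in CL to 10.8, 17.1 and 37.1 in UUO. In ABTAA mice it went from 3.32, 6.62 and 9.50 to 6.29, 13.8 and 27.2. The ranges overlapped in both. The log2 fold changes were 1.10 ± 0.33 (SE, adjusted p = 0.00964) and 1.33 ± 0.34 (adjusted p = 0.00377).

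Among Pdgfb WT kidneys, Trp53 was at 2.26, 18.2, 10.4 and 7.39 CPM in CL and at 30.4, 23.9, 20.4 and 23.3 in UUO, with no overlap and a log2 fold change of 1.41 ± 0.38 (adjusted p = 0.00433). Libraries labelled Pdgfb iKO had 6.47, 17.7, 9.12 and 8.96 CPM in CL and 0.00, 16.9, 18.0 and 18.1 in UUO, giving 0.70 ± 0.45 (adjusted p = 0.41). The library at 0 was the shallowest of that group, with 337545 counts. The difference between the 2 Trp53 responses was -0.72 ± 0.61 (adjusted p = 0.543).

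For Trp53 in the Veptp arm, the form of library name had a log2 effect of 1.81 on the level. Veptp WT libraries with split names had 36.7, 37.1, 23.4 and 35.5 CPM in CL and 63.4, 52.9, 63.7 and 51.6 in UUO. Veptp iECKO libraries with split names had 19.2, 22.2, 29.9 and 21.7 CPM in CL and 62.5, 64.3, 53.4 and 52.7 in UUO. Within this form both genotypes were separated by obstruction. With joined names Veptp WT libraries had 12.0, 4.80 and 4.98 CPM in CL and 20.1, 18.7, 27.6 and 29.3 in UUO, again without overlap. Veptp iECKO libraries with joined names had 7.20 and 12.7 CPM in CL and 0.00, 5.18, 10.2 and 8.97 in UUO, so they overlapped and none of the 4 lay above both CL libraries. The Trp53 response with split names minus that with joined names was -0.66 ± 0.45 (adjusted p = 0.929) in Veptp WT and 1.63 ± 0.73 (adjusted p = 0.464) in Veptp iECKO mice. For Veptp iECKO against Veptp WT in UUO the same difference between forms was 1.49 ± 0.44 (unadjusted p = 0.00181, adjusted p = 0.713). The pooled fits gave 0.84 ± 0.45 (adjusted p = 0.216) in Veptp WT and 0.88 ± 0.49 (adjusted p = 0.322) in Veptp iECKO. With form as a covariate they gave 1.02 ± 0.20 (adjusted p = 0.000118) and 1.15 ± 0.22 (adjusted p = 0.000214).

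Mdm2 and Ccng1 both act back on p53. Mdm2 was called in 2 of 6 obstruction comparisons and Ccng1 in 0 of 6. Mdm2, the ligase that marks p53 for degradation, rose from 9.20, 29.7 and 41.2 to 32.3, 48.5 and 68.1 CPM in IgG mice and from 24.0, 32.1 and 38.2 to 24.9, 42.7 and 66.5 in ABTAA mice. The log2 fold changes were 0.66 ± 0.20 (adjusted p = 0.00982) and 0.61 ± 0.20 (adjusted p = 0.0238), with overlapping ranges. The ABTAA call was lost in 6 of the 30 fits that left out 1 library, with an adjusted p of up to 0.101. In the other 4 comparisons Mdm2 was between 0.33 and 0.50 and did not pass the test.

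Cyclin G1, encoded by Ccng1, recruits a phosphatase that restores MDM2 activity, and it is a classical p53 target. Its fold changes lay between -0.60 and -0.01 on the log2 scale in the 6 comparisons, none passing the test, and without TMM scaling they turned to 0.02 in Pdgfb WT and 0.07 in libraries labelled Pdgfb iKO. The largest drop was in Veptp WT kidneys, from 91.1, 229 and 279 CPM in CL to 67.3, 120.5 and 223 in UUO (-0.60 ± 0.25, adjusted p = 0.088). With form of library name as a covariate this Ccng1 value was -0.51 ± 0.15 (adjusted p = 0.00567). It also passed the test without Veptp WT CL replicate 1 or 2 or UUO replicate 8 (-0.79, adjusted p = 0.0184 for the last), and in Pdgfb WT without CL replicate 2 (-0.54, adjusted p = 0.0371).

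Gadd45a and Gadd45b encode small stress proteins that slow the cell cycle and act in stress kinase signalling and DNA repair. Gadd45a rose in IgG (0.89 ± 0.33 on the log2 scale, adjusted p = 0.0325), ABTAA (1.04 ± 0.34, adjusted p = 0.0204) and Pdgfb WT mice (0.78 ± 0.31, adjusted p = 0.0492). In IgG mice it went from 8.12, 13.2 and 31.9 to 16.2, 22.8 and 46.7 CPM, and in ABTAA mice from 3.32, 9.17 and 24.2 to 8.39, 21.8 and 37.0, both with overlap. Pdgfb WT libraries had 20.4, 14.0, 7.43 and 23.2 CPM in CL and 37.4, 26.3, 28.0 and 23.3 in UUO, just without overlap. These Gadd45a calls were weak: leaving out 1 library ended the IgG call in 7 fits and the Pdgfb WT call in 8, with an adjusted p of up to 0.076 and 0.169. In the ABTAA arm it ended the call in 2 fits, with an adjusted p of up to 0.0881.

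On the strand opposite to Gadd45a lies the noncoding gene E230016M11Rik, with 613 counts over all libraries. Whether counting used strand is not stated, and reads of the pair may not be fully told apart. A predicted transcript, Gm45808, overlaps Bax on the same strand and AC167363.2 lies opposite to Cdkn1a, and neither is a row of the count table.

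Gadd45b was among the lowest of the 10 in counts, with at most 26 in any library. It was tested with all genes in the Veptp arm alone. In Veptp WT mice it rose from 0.00, 2.01 and 6.75 to 1.17, 5.80 and 15.7 CPM (log2 fold change 1.58 ± 0.52, adjusted p = 0.029), and the call was lost in 4 fits without 1 CL library (adjusted p up to 0.0652). In Veptp iECKO mice the change was 0.78 ± 0.54 (adjusted p = 0.474). Exact two-sided permutation tests on log2(CPM + 1) served where Gadd45b was too low. The difference was 1.01 in IgG (exact adjusted p = 0.113), 0.99 in ABTAA (0.113), 1.43 in Pdgfb WT (0.0457) and 0.73 in libraries labelled Pdgfb iKO (0.2), adjusted over 8 such tests. In Pdgfb WT kidneys the values were 1.13, 2.80, 1.49 and 0.00 CPM in CL and 5.07, 4.78, 6.79 and 2.92 in UUO, and 0.0286 was the smallest raw p that 4 against 4 libraries can give.

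Gdf15 encodes a secreted stress cytokine that is measured in blood as a marker of tissue injury. It rose with obstruction in all 4 genotypes of the Veptp and Pdgfb arms. Pdgfb WT libraries had 1.13, 2.80, 1.49 and 5.28 CPM in CL and 15.2, 10.7, 15.2 and 19.4 in UUO. Libraries labelled Pdgfb iKO had 1.29, 5.07, 4.56 and 4.98 CPM in CL and 9.94, 22.5, 10.3 and 7.08 in UUO. Obstruction separated the libraries fully in both. The log2 fold changes were 2.37 ± 0.45 (adjusted p = 0.000151) and 1.66 ± 0.50 (adjusted p = 0.0468), and the second call was lost in 12 of 16 fits that left out 1 library of the arm (adjusted p up to 0.227).

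In the ABTAA arm Gdf15 held 19 counts or fewer per library and was tested by exact permutation. It went from 0.00, 1.89 and 4.58 CPM in CL to 1.22, 11.6 and 31.3 in UUO in IgG mice (difference 2.02 on log2(CPM + 1), exact adjusted p = 0.014). In ABTAA mice it went from 0.00, 2.09 and 19.9 to 5.94, 10.5 and 18.5 (1.57, exact adjusted p = 0.0315). The single CL library at 19.9 CPM, from 9 counts, was higher than every ABTAA UUO library, and the next CL library had 4.32 CPM.

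Pooled over both forms of library name, the largest fitted response of Gdf15 was in Veptp iECKO mice. It went from 0.879, 3.77 and 8.44 CPM in CL to 6.70, 25.2 and 81.7 in UUO, a log2 fold change of 3.05 ± 0.52 (adjusted p = 0.000311). Split names alone gave 3.74 ± 0.36 for Gdf15 (adjusted p = 3.15e-07), and the response with split names minus that with joined names was 2.94 ± 1.11 (adjusted p = 0.356). In Veptp WT mice it went from 1.49, 6.00 and 10.8 to 5.01, 16.8 and 26.2, a change of 1.34 ± 0.44 (adjusted p = 0.0319), and this call was lost in 8 fits without 1 library (adjusted p up to 0.0707). The difference between the 2 responses was 1.72 ± 0.68, with an adjusted p of 1.00.

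By form of library name, Gdf15 in Veptp UUO kidneys fell into distinct levels. With split names, Veptp iECKO UUO libraries had 81.7, 38.7, 46.0 and 47.8 CPM and Veptp WT UUO libraries 19.9, 26.2, 25.5 and 19.0, with no overlap. With joined names they had 6.70, 10.4, 11.7 and 8.97 CPM against 5.73, 8.16, 5.01 and 14.7, and overlapped. These libraries held between 1 and 8 counts of Gdf15, against 28 to 138 with split names. Veptp iECKO against Veptp WT in UUO gave 1.08 ± 0.39 (adjusted p = 1.00) in the pooled fit, 1.06 ± 0.24 (adjusted p = 0.0893) with form as a covariate and 1.20 ± 0.25 (adjusted p = 0.459) with split names alone. No setting passed the test over all genes. In the same UUO libraries with split names, summed fibroblast and pericyte markers were at 442 to 947 CPM in Veptp iECKO and 1065 to 1323 in Veptp WT, also without overlap. Over all UUO libraries 0 of these 7 markers were called between the genotypes (list median -0.85). Their part in the Gdf15 difference was not tested. Thinned to the depth of the shallowest library the Gdf15 difference was 0.03 ± 0.52.

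**Figure D4:**
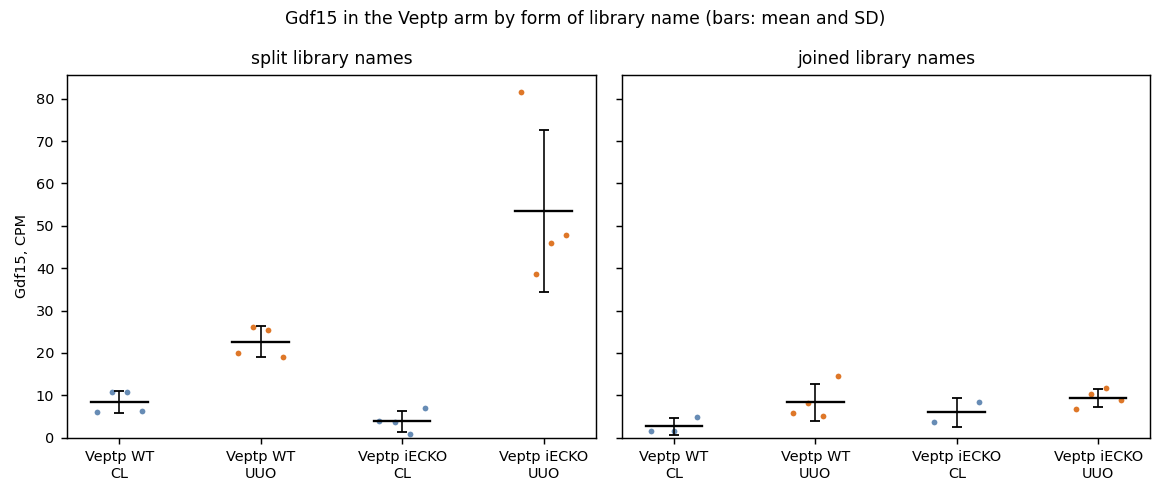
Gdf15 in CPM (linear axis) in Veptp WT and Veptp iECKO kidneys, split by the form of library name. Points are libraries (blue, CL; orange, UUO), and bars give mean and SD. With split names the 4 Veptp iECKO UUO libraries lie between 38.7 and 81.7 CPM, above the 4 Veptp WT UUO libraries, and with joined names the genotypes overlap.

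Among split names, Veptp library numbers 3, 4, 7 and 8 occur in CL and UUO with opposite genotype labels. Without these 8 libraries Gdf15 still rose in Veptp iECKO mice and the genotype difference in UUO was 1.13 ± 0.48 (adjusted p = 1.00). The same omission took the rise of Cdkn1a in Veptp iECKO mice to 1.83 (adjusted p = 0.0691) and left it at 2.25 (adjusted p = 0.00145) in Veptp WT mice.

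Bax, Trp53inp1 and Phlda3 stand for the death-promoting side. BAX opens the outer mitochondrial membrane in apoptosis, TP53INP1 helps p53 towards apoptosis and autophagy, and PHLDA3 restrains the survival kinase AKT. Bax had log2 fold changes between 0.15 and 0.60 in the 6 comparisons, none passing the test. The closest was Pdgfb WT, with 44.1, 26.6, 43.1 and 40.1 CPM in CL and 57.7, 54.9, 51.5 and 46.7 in UUO (0.46 ± 0.19, adjusted p = 0.0581), where the libraries did not overlap. Trp53inp1 had values between -0.07 and 0.62, also without a call, and its ranges overlapped everywhere. Other settings called both. With form of library name as a covariate Trp53inp1 passed in IgG (0.56, adjusted p = 0.0234) and Veptp iECKO (0.74, adjusted p = 0.026), as did Bax in Veptp iECKO (0.62, adjusted p = 0.0365). Leaving out 1 library added the call of Trp53inp1 in IgG in 2 fits and that of Bax in Pdgfb WT and in libraries labelled Pdgfb iKO in 1 fit each.

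Phlda3 rose in Veptp WT (1.68 ± 0.47 on the log2 scale, adjusted p = 0.00914) and Pdgfb WT mice (1.38 ± 0.49, adjusted p = 0.028). In Veptp WT mice it went from 0.00, 2.67 and 6.41 CPM to 3.03, 9.99 and 22.6, and in Pdgfb WT mice from 4.53, 2.80, 1.49 and 5.28 to 12.7, 10.7, 10.8 and 2.92. The Pdgfb WT call was lost in 5 fits that left out 1 library (adjusted p up to 0.0848). In the ABTAA arm the exact permutation test of Phlda3 gave a difference of 1.98 on log2(CPM + 1) in IgG (exact adjusted p = 0.0294) and 1.71 in ABTAA mice (exact adjusted p = 0.014). The values were 0.76 ± 0.53 (adjusted p = 0.477) in Veptp iECKO mice and 1.05 ± 0.50 (adjusted p = 0.235) in libraries labelled Pdgfb iKO.

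Treatment and genotype were then compared within 1 kidney state. ABTAA against IgG gave 0 called genes of 9579 in UUO (0.0%), in CL (0.0%) and for the difference of responses (0.0%), with 340, 303 and 315 genes at an unadjusted p under 0.05 by edgeR. DESeq2 called 0 in each, and edgeR's exact test called 0 in the first 2. For the 7 tested members, ABTAA minus IgG in UUO lay between -0.27 and -0.05. For Cdkn1a the forms of library name went opposite ways, at -0.50 ± 0.28 (adjusted p = 0.87) with joined names and 0.70 ± 0.33 (adjusted p = 1.00) with split names. Their difference was 1.17 ± 0.43 (unadjusted p = 0.01, adjusted p = 0.981). ABTAA UUO libraries lay between 39.9 and 78.9 CPM of Cdkn1a with joined names and between 33.2 and 41.4 with split names. Veptp iECKO against Veptp WT also gave 0 called genes of 11916 in UUO (0.0%), in CL (0.0%) and for the difference of responses (0.0%), with 426, 229 and 324 genes at an unadjusted p under 0.05. There DESeq2 called 1, 0 and 0 genes and edgeR's exact test 4 in UUO and 0 in CL, none of them a member. Of the 10 members Gdf15 alone was under an unadjusted 0.05 in UUO.

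In the Pdgfb arm the treatment was a gene deletion, and the level of Pdgfb was read beside the labels. Pdgfb was at 20.1 CPM or less in 4 CL libraries of Pdgfb WT mice, some of them sham-operated. It was at 16.8 to 25.1 in the 4 CL libraries labelled Pdgfb iKO, where the label implies a lower level (log2 difference 0.78 ± 0.33, adjusted p = 1.00). That difference did not pass the test, and gene counts alone do not settle whether the label holds. In UUO Pdgfb was at 43.6 to 57.4 against 33.1 to 40.9 CPM, without overlap (log2 difference -0.47 ± 0.21, adjusted p = 0.125). Ptprb was at 28.1 to 74.7 CPM in Veptp WT CL libraries and 25.2 to 42.2 in Veptp iECKO CL libraries. The 2 ranges overlapped, and the log2 difference was -0.63 ± 0.36 (adjusted p = 1.00). In UUO Ptprb was at 24.9 to 87.4 against 12.1 to 62.8 CPM, also with overlap, and the log2 difference was -0.69 ± 0.33 (unadjusted p = 0.0433, adjusted p = 1.00).

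Cdkn1a was the 1 member that differed between the Pdgfb genotypes in UUO, where 18.6% of all genes were called, so that 1 of 9 tested members is not above the background. It was at 61.3 to 79.4 CPM in Pdgfb WT UUO kidneys and at 33.1 to 44.6 in UUO libraries labelled Pdgfb iKO, with no overlap. The log2 difference was -0.73 ± 0.19 (adjusted p = 0.0088). It passed the test in all 16 fits that left out 1 library (adjusted p between 0.00432 and 0.0404) and with DESeq2 (-0.73, adjusted p = 0.0147) and edgeR's exact test (adjusted p = 0.000327). In CL the difference was 0.46 ± 0.33 (adjusted p = 1.00), where 0.0% of all genes were called, 378 were at an unadjusted p under 0.05, and DESeq2 and edgeR's exact test called 0.

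The difference of the 2 responses of Cdkn1a was -1.19 ± 0.38 (adjusted p = 0.0548), just outside the threshold, against 8.56% of all genes called. Without Pdgfb WT CL replicate 4 it was -1.62 (adjusted p = 0.0115), and without the CL library labelled Pdgfb iKO replicate 4 it was -1.44 (adjusted p = 0.0288). The other 8 tested members lay between -0.62 (Trp53) and 0.41 (Mdm2) in UUO, none passing the test. Trp53 was at 20.4 to 30.4 CPM against 0.00 to 18.1 and did not overlap either (-0.62 ± 0.33, adjusted p = 0.206), while Mdm2 was at 0.41 ± 0.19 (adjusted p = 0.134) and Gdf15 at -0.27 ± 0.32 (adjusted p = 0.627). All 4 UUO libraries labelled Pdgfb iKO held both Xist and Y-linked counts as defined above, against 2 of 4 Pdgfb WT UUO libraries. In CL it was 0 of 4 and 2 of 4, so that in libraries labelled Pdgfb iKO these counts coincide with obstruction, and their part in the result was not tested.

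**Figure D5:**
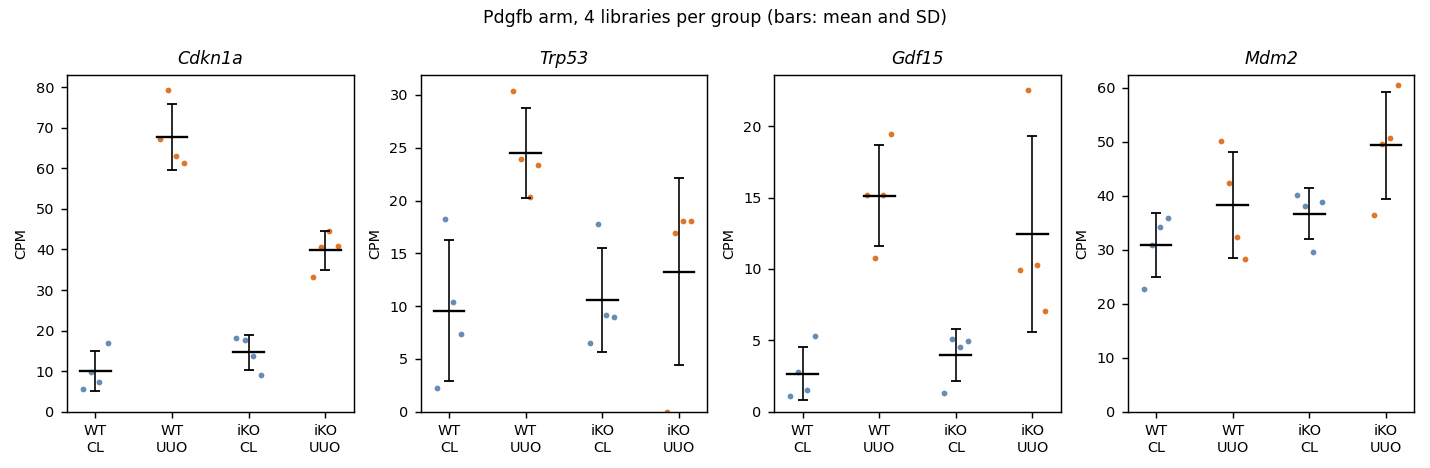
Cdkn1a, Trp53, Gdf15 and Mdm2 in CPM (linear axes) in the 4 groups of the Pdgfb arm, 4 libraries each. Points are libraries (blue, CL; orange, UUO), and bars give mean and SD. Cdkn1a in UUO lies between 61.3 and 79.4 CPM in Pdgfb WT and between 33.1 and 44.6 CPM in libraries labelled Pdgfb iKO, Trp53 in UUO also does not overlap between the genotypes but did not pass the test.

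Cell type markers moved in the same comparisons, in which 3.94% to 17.9% of all genes rose and 2.42% to 19.4% fell. Summed over 7 genes of injured tubule (among them Havcr1 and Lcn2), UUO libraries held between 1992 and 5858 CPM, and all 7 genes rose in each of the 6 comparisons. The 8 proximal tubule markers fell in 8, 7, 5, 5, 8 and 4 cases in the order used above. Of 6 loop and distal tubule markers 5, 5, 5, 4, 5 and 4 fell. Of 7 fibroblast and pericyte markers 7, 7, 7, 2, 7 and 3 rose, and of 9 macrophage and monocyte markers 9, 8, 8, 7, 9 and 6 rose. The part of these cell types in the rise of Cdkn1a, Gdf15 and the other members was not tested. Between the Pdgfb genotypes in UUO, 18.6% of all genes were called in either direction. The summed injured tubule markers were at 3411 to 4243 CPM in Pdgfb WT and 2230 to 2789 in libraries labelled Pdgfb iKO. Of these markers 1 of 7 was called lower, which is not above that share. Proximal tubule markers were at 1443 to 2290 against 2807 to 5047 CPM, with 7 of 8 higher. The 7 fibroblast and pericyte markers were at 1179 to 1584 against 415 to 984 CPM, with 6 lower, and 5 of 9 macrophage and monocyte markers were lower. Loop and distal tubule markers were at 2217 to 2565 against 3771 to 5418 CPM, with 5 of 6 higher, and endothelial markers at 207 to 288 against 137 to 215 CPM, with 3 of 7 lower. The part of these markers in the change of Cdkn1a was not tested. Neutrophil markers had group medians of at most 9.53 CPM summed over 5 genes, and Mpo was at 0 in every library of 4 groups. Veptp WT UUO replicates 2 and 3 were at 67.6 and 92.8 CPM of these markers, against at most 24.3 in any other library.

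One CL library stood apart in the Veptp arm. Veptp iECKO CL replicate 2 held 1772 CPM of injured tubule markers against 511 to 693 in the other 5 and 781 CPM of fibroblast and pericyte markers against 158 to 388. It also had the highest level of Cdkn1a (29.5 CPM), Gadd45a (25.3), Phlda3 (12.7) and Gdf15 (8.44) of its group. Without it the rise of Cdkn1a in Veptp iECKO mice was 2.81 (adjusted p = 2.44e-05), that of Gdf15 was 3.17 (adjusted p = 0.000274), and Gadd45a passed the test at 1.06 (adjusted p = 0.0432).

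Further p53 targets, 36 in a list, gave 9 that rose and 2 that fell among 21 tested in IgG mice, 8 and 1 of 21 in ABTAA, 9 and 2 of 29 in Veptp WT, 5 and 1 of 29 in Veptp iECKO, 8 and 3 of 24 in Pdgfb WT and 3 and 1 of 24 in libraries labelled Pdgfb iKO. Over all genes tested, the shares that rose are those given above, and the shares that fell were 18.2%, 12.5%, 8.38%, 3.47%, 19.4% and 2.42% in the same order. The list medians lay between 0.17 and 0.49. Sfn, which encodes the arrest protein 14-3-3 sigma, rose in all 6, by 1.82 to 2.63 on the log2 scale. Pmaip1 (Noxa), a death-promoting member of the BCL2 family, rose in 5 of 6 by 1.89 to 2.39, and was at 0.68 ± 0.36 (adjusted p = 0.303) in libraries labelled Pdgfb iKO. Between the Pdgfb genotypes in UUO, 3 of 24 tested genes of the list were higher and 1 lower in libraries labelled Pdgfb iKO, where 18.6% of all genes were called. Pmaip1 was the lower one, at -1.08 ± 0.27 (adjusted p = 0.0056). The higher ones, named after their values were seen, were Dcxr (1.29 ± 0.15, adjusted p = 1.86e-06), Gpx1 (0.53 ± 0.16, adjusted p = 0.0173) and Ei24 (0.44 ± 0.15, adjusted p = 0.0343). Ckap2, a spindle protein, rose in 4 of 6, by 1.78 to 2.20.

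Of 22 listed regulators of p53, 14 to 16 were tested per arm. In the order used above, 2, 0, 0, 0, 1 and 0 rose and 2, 1, 1, 0, 2 and 0 fell, against shares of all genes of 3.94% to 17.9% that rose and 2.42% to 19.4% that fell. Trp53bp2, whose product ASPP2 steers p53 towards death genes, fell in 4 of 6, from -0.77 to -0.59. Among 20 other growth arrest genes, of which 15 to 19 were tested, 1, 2, 1, 0, 3 and 1 rose and 2, 2, 2, 0, 3 and 0 fell, with list medians between -0.15 and 0.11. The antiproliferative gene Btg1 rose in 4 of 6 (0.74 to 1.29), while Gas2, a cytoskeletal gene induced in growth-arrested cells, and Tob1, an antiproliferative gene, fell in 4 of 6 each. Of 17 genes of the BCL2 and caspase systems, 16 or 17 were tested, and 5, 3, 3, 0, 5 and 2 rose while 1, 0, 0, 0, 2 and 0 fell, beside the same shares of all genes. Bak1, a partner of Bax in opening mitochondria, rose in 4 of 6 (1.17 to 1.86). Bcl2l11 rose in 4 of 6 and Bok in 3 of 6. Between the Pdgfb genotypes in UUO 18.6% of all genes were called. There Trp53bp2 was the 1 called of 16 tested regulators, higher in libraries labelled Pdgfb iKO (0.54 ± 0.17, adjusted p = 0.0302). Gas2 was the 1 called of 17 growth arrest genes, also higher (1.03 ± 0.20, adjusted p = 0.000541). Of 17 BCL2 and caspase genes Cycs was higher (1.16 ± 0.16, adjusted p = 1.34e-05). Bcl2l11 (-1.09 ± 0.37, adjusted p = 0.038) and Bmf (-1.16 ± 0.28, adjusted p = 0.0047) were lower.

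Of 20 listed proliferation genes, 13 of 16 tested rose in IgG mice, 14 of 16 in ABTAA, 14 of 19 in Veptp WT, 10 of 19 in Veptp iECKO, 13 of 18 in Pdgfb WT and 2 of 18 in libraries labelled Pdgfb iKO, and at most 1 fell. Of all genes tested, 16.3%, 12.6%, 10.0%, 4.47%, 17.9% and 3.94% rose, and the same shares stand beside the stress genes that follow. Mki67, which marks cycling cells, rose in 5 of 6 by 1.51 to 2.55 and was at 0.72 ± 0.31 (adjusted p = 0.177) in libraries labelled Pdgfb iKO. Top2a, which untangles replicated DNA, rose in 5 of 6 and Ccnb2, a mitotic cyclin, in all 6. Between the Pdgfb genotypes in UUO, 0 of 18 tested were higher and 2 lower in libraries labelled Pdgfb iKO, against 18.6% of all genes called, and these were Mki67 (-0.87 ± 0.24, adjusted p = 0.0137) and Top2a (-0.83 ± 0.24, adjusted p = 0.0147). Of 15 general stress genes, 8 of 9 tested rose in IgG, 6 of 9 in ABTAA, 9 of 13 in Veptp WT, 8 of 13 in Veptp iECKO, 8 of 11 in Pdgfb WT and 4 of 11 in libraries labelled Pdgfb iKO, and 0 fell. Between the Pdgfb genotypes in UUO, 0 of 11 stress genes were higher and 4 lower in libraries labelled Pdgfb iKO, against 18.6% of all genes called. These were Klf6 (-0.55 ± 0.14, adjusted p = 0.0079) and, named after their values were seen, Egr1 (-1.43 ± 0.35, adjusted p = 0.0047), Jun (-0.79 ± 0.23, adjusted p = 0.015) and Klf4 (-0.79 ± 0.23, adjusted p = 0.019). For the difference of responses 3 of 11 were lower, against 8.56% of all genes. Atf3, a stress-induced transcription factor, rose in all 6 by 2.33 to 4.34, as did Myc by 1.68 to 3.05 and Klf6 by 1.46 to 2.51.

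Over the means of log2(CPM + 1) in the 12 groups, the genes most like Cdkn1a among 9553 compared were Thy1 (Pearson r = 0.985), Apaf1 (0.984), Cd44 (0.984), Fgb (0.983) and Mmp14 (0.981). Of the other members Gdf15 was nearest (0.90), followed by Phlda3 (0.878) and Gadd45a (0.846), while Trp53 was at 0.57 and Ccng1 at -0.577. Those most like Gdf15 were Eif4ebp1 (0.968), Hspb1 (0.967), Smox (0.966), Stat2 (0.961) and H2-Q4 (0.96). The 12 points share arms and library forms, and the values are descriptions.

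Ordered by mean level, the 6 UUO groups of Cdkn1a ran from 67.7 ± 8.17 CPM (SD) in Pdgfb WT through Veptp WT (52.5 ± 16.1), IgG (50.8 ± 31.0), ABTAA (46.1 ± 15.3) and Veptp iECKO (40.3 ± 14.7) to 39.8 ± 4.81 in libraries labelled Pdgfb iKO, and all neighbours overlapped. A gap followed to the 6 CL groups, which lay between 9.50 and 14.6 CPM. For Gdf15 the UUO groups ran from 31.5 ± 26.7 CPM in Veptp iECKO to 11.1 ± 4.63 in ABTAA mice, and the CL groups from 5.96 to 1.98 CPM, with every pair of neighbours overlapping.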

How the data were processed

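The 75 kidney libraries were made with Smart-seq3. The authors merged 4 wells per sample, aligned reads to mm10 with STAR 2.7.3a, handled molecular identifiers with UMI-tools 1.1.4 and counted with featureCounts (Subread 1.4.6-p5). Of the gene annotation and strand setting, nothing is stated (not given in the sources used here). The deposited values are raw counts per gene. Libraries were grouped by genotype and kidney from the labels, and the labels do not say which libraries come from 1 animal, so p-values measure the spread between libraries.

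Each arm was fitted with edgeR 4.0.16 (R 4.3.3; TMM scaling, filterByExpr, quasi-likelihood test, 4 group means), with Benjamini-Hochberg adjustment over all genes tested (9579, 11916 and 10923 in the ABTAA, Veptp and Pdgfb arms) and a threshold of 0.05. This replaced the exact test of the study, which was run as an alternative. Genes under the filter were tested by exact two-sided permutation with scipy 1.17.1 on log2(CPM + 1). The fits were tested on simulated data. Alternatives were DESeq2 1.42.0, no TMM, no filter, thinned counts, form of library name, a replicate block and each library left out. Fits of the interaction with form were added after seeing the data. Shared library numbers were checked for pairing: in the ABTAA arm 3 pairs had correlated deviations (r between 0.159 and 0.386).

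The 10 genes and all gene lists were chosen with earlier results of these data known. Beyond the 10, the text names Ptprb and Pdgfb, up to 3 genes per pathway list with the largest median absolute log2 fold change over the 6 obstruction comparisons among those called in at least 3, and the 5 genes most like Cdkn1a and Gdf15. Dcxr, Gpx1, Ei24, Egr1, Jun, Klf4, Cycs and Bmf are named because they were called between the Pdgfb genotypes in UUO, after their values were seen. Havcr1, Lcn2, Mpo, Xist and overlapping genes are named as markers or annotation.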

Additional observations from a re-analysis of the deposited data

Results flagged for a closer look

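In 12 of 120 groups of libraries, 1 library lay far from the others of its group, by a gap that chance gives in about 1 in 20 groups. Trp53 was at 0.00 CPM in the UUO library labelled Pdgfb iKO replicate 1, where the next library had 16.9 CPM, and Mdm2 was at 9.20 CPM in IgG CL replicate 4, with the next at 26.4. Gdf15 was at 1.29 CPM in the CL library labelled Pdgfb iKO replicate 1, with the next at 4.56, which is a difference between 1 and 2 counts. These were low, and the others were high.

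Cdkn1a stood at 78.9 CPM in ABTAA UUO replicate 3, with the next at 49.8. IgG CL replicate 2 was high in both Gadd45a (31.9 CPM, next 18.3) and Bax (88.5 CPM, next 49.6). Veptp iECKO CL replicate 2 was high in both Gadd45a (25.3 CPM, next 12.4) and Phlda3 (12.7 CPM, next 3.88), and it is the library whose injured tubule markers stood apart. Gadd45b was at 6.75 CPM in Veptp WT CL replicate 4 (next 2.81) and at 5.15 CPM in the UUO library labelled Pdgfb iKO replicate 3 (next 3.38). In ABTAA CL, Gdf15 was at 19.9 CPM in replicate 4 (next 4.32) and Phlda3 at 12.8 CPM in replicate 3 (next 4.42).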

How the results depend on the processing

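The number of members called with obstruction depended on the settings, in the order IgG, ABTAA, Veptp WT, Veptp iECKO, Pdgfb WT and libraries labelled Pdgfb iKO (4, 4, 4, 2, 5 and 2 as reported). Thinned to the shallowest library it was 1, 1, 0, 0, 2 and 0, while 17.5%, 8.61%, 2.73%, 0.276%, 20.5% and 1.11% of all genes were called. With edgeR's exact test it was 2 in IgG (36.8% of all genes), 2 in Veptp WT (18.4%), 1 in Veptp iECKO (5.9%) and 1 in the libraries labelled Pdgfb iKO (6.48%), and with DESeq2 3 in Pdgfb WT (23.6%) and 1 in those labelled Pdgfb iKO (4.94%). Libraries with joined names alone gave 2, 1, 1 and 0 in the first 4 (23.3%, 11.6%, 14.0% and 0.0%). In both Veptp genotypes it was 7 with form as a covariate, 7 with split names alone and 7 with the replicate block, and 1 without numbers 3, 4, 7 and 8. In Veptp WT and Veptp iECKO the share of all genes called was 18.4% and 7.95% as reported, 33.9% and 21.5% with the covariate, 25.6% and 21.1% with split names, 29.7% and 20.4% with the block, and 7.39% and 0.979% without those numbers. The causes of these differences were not tested.

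The replicate block left 4 and 4 calls in IgG and ABTAA, with 36.8% and 27.9% of all genes called. In that arm it joined the ABTAA libraries numbered 9, 11 and 12 alone, and no IgG library was blocked. The 8 shared numbers of the Veptp arm gave r between 0.0583 and 0.427, with 7 of 8 over 0.1. The main fits did not take them as pairs. The replicate block did join CL and UUO libraries of the same number there, also where the genotype labels were opposite. It covered every split name of the Veptp arm and so took up form as well. Without TMM scaling the median of all genes shifted to 0.41 in Pdgfb WT, where 8 members were called and 4453 of 5606 called genes were higher, against 1956 of 4075 with TMM. In IgG 2492 of 3579 were higher without TMM, against 1561 of 3301. Between the Pdgfb genotypes in UUO 3 members were called without TMM (28.9% of all genes, whose median shifted to -0.29). The exact test called 2 (21.0%), against 1 (18.6%) as reported. For the difference of responses 1 member was called without TMM (8.97% of all genes), against 0 (8.56%) as reported.

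Leaving out 1 library gave 2 to 5 members in IgG, 2 to 4 in ABTAA, 2 to 4 in Veptp WT, 2 to 3 in Veptp iECKO, 3 to 6 in Pdgfb WT, 1 to 2 in libraries labelled Pdgfb iKO and 0 to 1 for the difference between the Pdgfb responses. The share of all genes called in each such fit is not given, so these ranges have no background beside them. Of the values so recomputed 1253 kept direction and call, 52 lost the call, 11 gained it and 11 changed sign.

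Mdm2 in Veptp iECKO was -0.26 when thinned. Ccng1 when thinned was 0.13 in ABTAA, 0.14 in Veptp iECKO and 0.11 in libraries labelled Pdgfb iKO. Ccng1 was 0.059 in Veptp iECKO with joined names, 0.024 in Pdgfb WT and 0.071 in those labelled Pdgfb iKO without TMM, and 0.0019 in those labelled Pdgfb iKO with the exact test. Trp53inp1 in Veptp WT was 0.053 without TMM, 0.31 with joined names, 0.11 with the replicate block and 0.058 without numbers 3, 4, 7 and 8. With 1 library left out, in libraries labelled Pdgfb iKO Ccng1 lay between -0.13 and 0.14 and Trp53inp1 between -0.13 and 0.26, Trp53inp1 in Veptp WT between -0.20 and 0.0078, and Bax in ABTAA between -0.11 and 0.27.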
